A study of Bos taurus with 11 samples.

Results

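Tubulins and dynein light chains were described in the endometrium, the mucosal lining of the uterus, of dairy cows that differed in energy balance after calving. The members were 10 named genes, and a probe set counted where the platform annotation gave it exactly 1 of these symbols. Of the 10 genes 7 were measured (TUBA1A, TUBA4A, TUBB, TUBG1, DYNLT1, DYNLT3 and DYNLL1), by 11 probe sets, among 9155 genes with a probe set of 1 symbol. TUBA1B, TUBA1C and TUBB6 had no such probe set and were not analysed here. Each gene is given by its main probe set, the one with the highest mean over the 11 arrays, unless another is named. TUBA1A and DYNLT1 were chosen by their severe minus mild difference, since an earlier look at these arrays placed both among the genes with the smallest p for a lower signal in severe cows. For that reason the differences of all 7 genes between severe and mild cows are given as a description, with no test.

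The tissue came from 11 multiparous Holstein-Friesian cows and was taken at slaughter 14 ± 0.4 days after calving. Severe cows (n = 6) were held on 25 kg/day silage plus 4 kg/day concentrate with 3 milkings daily, which was meant to bring a severe negative energy balance, a state in which the cow spends more energy than its feed supplies. Mild cows (n = 5) had free access to silage, 8 kg/day concentrate and 1 milking daily. Both regimes began on day 2 after calving, and feeding level and milking frequency differed together, so that their parts cannot be told apart. Cows were blocked on parity, body condition and earlier yield before they were allocated at random. Their mean parity was 4.7 and their previous yield 6477 ± 354 kg. Crude protein is labelled as 21% in both groups. Each cow's total RNA was measured on 1 Affymetrix bovine array, and values are log2 signals after RMA, the authors' background correction, quantile normalization and summary of probes.

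Microtubules are hollow filaments built from dimers of 1 alpha and 1 beta tubulin. They form the spindle that separates chromosomes, the tracks of transport inside cells and the core of cilia. Gamma tubulin is not part of the wall of the filament but sits in ring complexes that start its growth. Cytoplasmic dynein is the motor that carries cargo toward the minus end of the microtubule, and its light chains bind the intermediate chains at the base of the motor. The endometrium after calving is a tissue in repair, in which epithelium regrows, leukocytes enter and the enlarged uterus shrinks back.

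All arrays had a median of 6.20, correlations between arrays ran from 0.948 to 0.991, and the 3' minus 5' difference averaged over 6 control transcripts, which reflects RNA integrity, was 0.59 in severe cows (SD 0.14, n = 6) and 0.56 in mild cows (SD 0.07, n = 5). The 11 member probe sets lay between the 64.3 and 99.2 percentile of mean signal, so none was dim, a word used here for a mean signal below 5.52, which 40% of probe sets did not exceed. In bulk tissue fewer cells of a type and less RNA per cell cannot be told apart.

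Of the 7 genes 6 averaged lower in severe cows, and DYNLT3 averaged higher by its main probe set. A difference below 0 was found in 51.1% of all genes. The differences of the 7 ran between -0.78 and 0.12 log2 units with a median of -0.50, where the median of all 9155 genes was -0.00378. Without TUBA1A and DYNLT1 the median of the other 5 was -0.43. TUBA1A and DYNLT1 were the genes in which all 6 severe cows lay below all 5 mild cows. Such a separation was found in 0.437% of all genes, and for these 2 it is part of why they were chosen. As background, 0.0% of 24016 probe sets passed an adjusted p of 0.05 in the limma fit across all probe sets, and 15.9% of all genes had an unadjusted p under 0.05.

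TUBA1A encodes an alpha tubulin best known from developing neurons. Its log2 signal in severe cows 1 to 6 was 12.22, 11.60, 12.05, 11.74, 12.01 and 11.90, against 12.81, 12.51, 12.62, 12.61 and 12.25 in mild cows 1 to 5. No severe cow reached the lowest mild cow, but the gap between severe 1 and mild 5 was only 0.02. TUBA1A averaged 11.92 in severe cows (SD 0.22, n = 6) and 12.56 in mild cows (SD 0.21, n = 5), a difference of -0.64 ± 0.13 (SE), or 0.642 times the mild signal. Its probe set carries a suffix, _a_at, that in Affymetrix naming marks probes shared by several transcripts of a gene. Coding sequences of TUBA1A, TUBA1B and TUBA1C are known to be nearly identical, and how far its signal includes RNA of the other two was not tested.

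TUBA4A encodes an alpha tubulin best known from platelets, muscle and neurons. Its signal was 8.92, 8.38, 9.18, 8.23, 8.51 and 8.40 in severe cows 1 to 6, against 9.73, 10.16, 9.36, 9.25 and 8.43 in mild cows 1 to 5. The groups overlapped, since mild 5 lay among the severe cows and 4 of 5 mild cows lay above all severe cows. Its difference of -0.78 ± 0.27 (SE) was the lowest of the 7 main probe sets and also had the largest error. The second TUBA4A probe set had 6.75 in severe cows (SD 0.52, n = 6) and 7.64 in mild cows (SD 0.52, n = 5), a difference of -0.88 ± 0.28 (SE). Over the 11 cows the deviations of the 2 probe sets from their group means had an r of 0.91.

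TUBB encodes the beta tubulin that most cell types make. Its signal was 11.92, 11.37, 11.76, 11.45, 11.87 and 11.76 in severe cows 1 to 6, against 12.20, 12.30, 12.38, 12.35 and 11.68 in mild cows 1 to 5. Again 4 mild cows lay above every severe cow and mild 5 lay within the severe range. TUBB averaged 11.69 in severe cows (SD 0.23, n = 6) and 12.18 in mild cows (SD 0.29, n = 5), and differed by -0.50 ± 0.14 (SE).

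TUBG1 encodes gamma tubulin, the part of the ring complex on which new microtubules start. It had 8.42, 8.39, 8.77, 8.37, 8.33 and 8.18 in severe cows 1 to 6, against 8.95, 9.04, 8.90, 8.995 and 8.33 in mild cows 1 to 5. The pattern was that of TUBB, with mild 1 to 4 above all severe cows and mild 5 level with severe 5. The difference was -0.43 ± 0.14 (SE).

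DYNLT1, known as Tctex-1, is a light chain of the dynein motor that also binds receptors and other cargo. Its signal was 9.51, 9.01, 9.44, 9.14, 9.55 and 9.03 in severe cows 1 to 6, against 9.73, 10.03, 9.92, 10.05 and 9.59 in mild cows 1 to 5. The groups did not overlap, and the gap between severe 5 and mild 5 was 0.04. DYNLT1 averaged 9.28 in severe cows (SD 0.25, n = 6) and 9.87 in mild cows (SD 0.20, n = 5), a difference of -0.59 ± 0.13 (SE), or 0.666 times the mild signal.

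DYNLT3 belongs to the same light chain family and takes the same place on the motor. Its main probe set gave 9.30, 9.07, 8.82, 9.24, 8.73 and 8.77 in severe cows 1 to 6, against 8.72, 8.84, 8.97, 8.87 and 8.94 in mild cows 1 to 5. Severe 1, 2 and 4 lay above all mild cows and the other severe cows within the mild range, so that the groups overlapped. The difference was 0.12 ± 0.12 (SE). The other probe sets of DYNLT3 did not give 1 direction, one differing by 0.20 ± 0.15 (SE) and one by -0.30 ± 0.17 (SE). The deviations of the main probe set had an r of 0.91 with those of the first and 0.12 with those of the second over 11 cows, so the direction of DYNLT3 depends on the probe set.

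DYNLL1, or LC8, is a small light chain that also dimerises many proteins outside the motor. It had 11.29, 11.05, 11.19, 10.92, 11.18 and 11.23 in severe cows 1 to 6, against 11.73, 11.72, 11.55, 11.50 and 11.01 in mild cows 1 to 5. Mild 1 to 4 lay above all severe cows, and mild 5 lay below all but severe 4. The difference was -0.36 ± 0.13 (SE), and that of a second probe set was -0.41 ± 0.16 (SE). The main probe set carries a suffix, _s_at, that in Affymetrix naming marks probes shared by transcripts that can come from different genes.

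**Figure D1:**
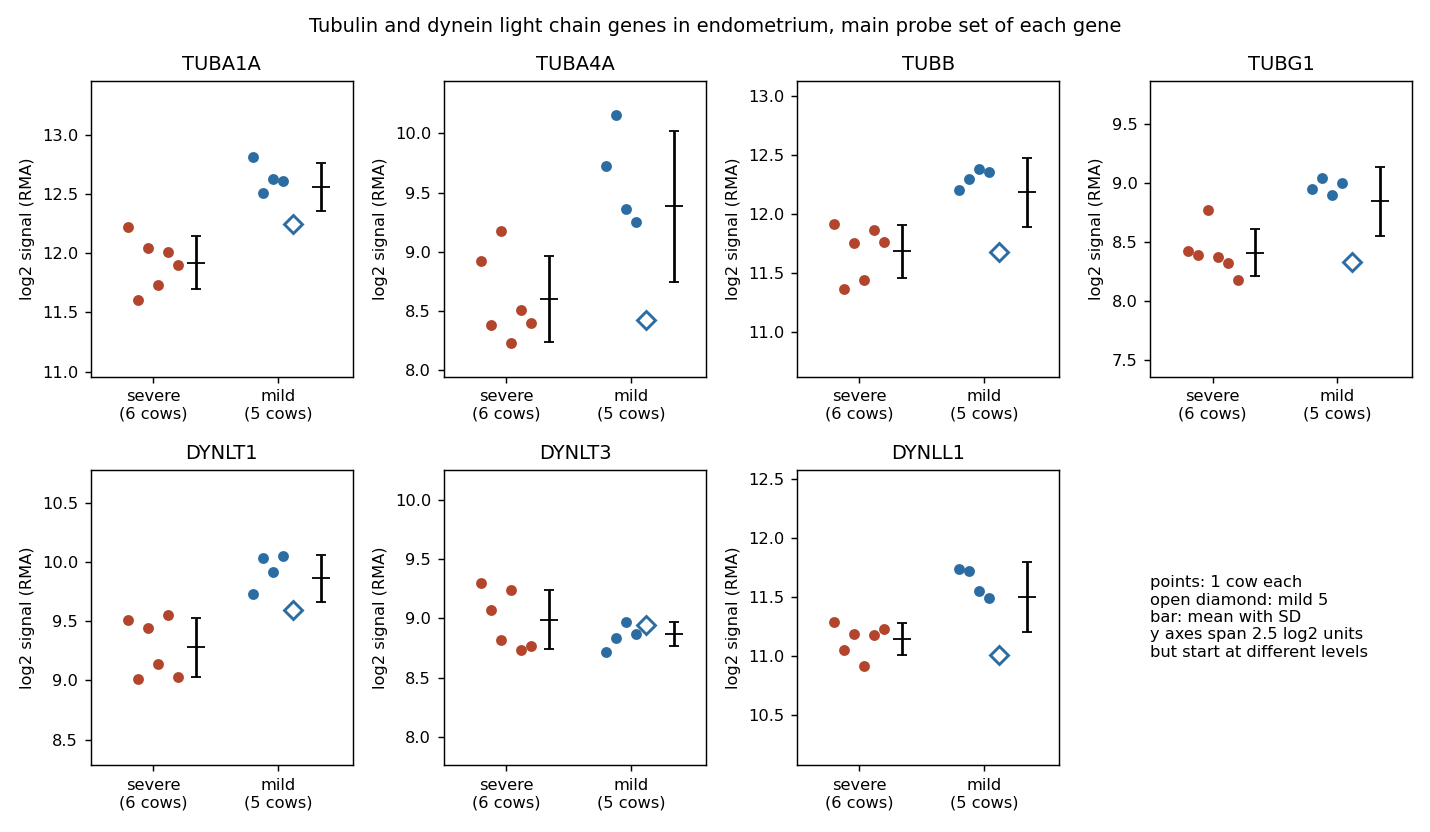
Log2 signal of the main probe set of each gene in every cow, with severe cows (n = 6) on the left and mild cows (n = 5) on the right, and bars for the mean and SD. Groups are apart in TUBA1A and DYNLT1, mild 5 (open diamond) lies among the severe cows in TUBA4A, TUBB, TUBG1 and DYNLL1, and the groups overlap in DYNLT3.

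Mild 5 was thus the lowest mild cow in the 6 genes that averaged lower in severe cows. Without mild 5 the severe cows lay below all remaining mild cows in 6 of the 7 genes, against 3.62% of all genes under the same omission. That count follows from the values above, since mild 5 was singled out after they were seen. It includes TUBA1A and DYNLT1, which were chosen by this contrast, so the count is no test of the members. Without mild 5 the differences were -0.72 for TUBA1A, -1.02 for TUBA4A, -0.62 for TUBB, -0.56 for TUBG1, -0.65 for DYNLT1 and -0.48 for DYNLL1. Over all probe sets the mean correlation of mild 5 with the other arrays was 0.980, within the range of 0.969 to 0.983 over the 11 cows, and no label sets that cow apart from the other mild cows.

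**Figure D2:**
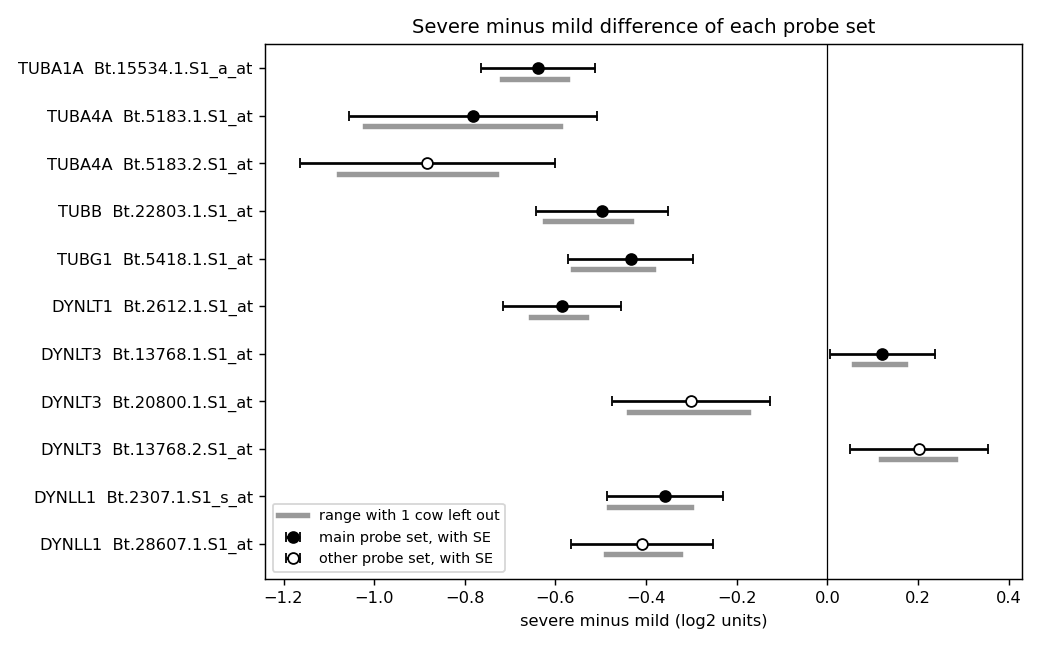
Severe minus mild difference (log2 units) of the 11 probe sets, with points and bars for the estimate and its SE, filled for the main probe set, and grey lines for the range when any 1 cow was left out. TUBA1A, TUBA4A, TUBB, TUBG1, DYNLT1 and DYNLL1 stay below 0 throughout, while the DYNLT3 probe sets lie on both sides.

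TUBA1A and DYNLT1 were set against their relatives by differences within each cow, which compare changes and not levels and are given with no test. TUBA1A minus TUBB was 0.23 in severe cows (SD 0.07, n = 6) and 0.38 in mild cows (SD 0.19, n = 5), a difference of -0.14 ± 0.09 (SE). TUBA1A minus TUBG1 differed by -0.21 ± 0.14 (SE), and TUBA1A minus TUBA4A by 0.14 ± 0.24 (SE), which turned to -0.06 without mild 2. In each of these the groups overlapped. DYNLT1 minus DYNLL1 differed by -0.23 ± 0.14 (SE), with overlap too. DYNLT1 minus DYNLT3 ran from -0.10 to 0.82 in severe cows and from 0.65 to 1.19 in mild cows, and differed by -0.71 ± 0.19 (SE). Severe 5 alone lay within the mild range. Set against the DYNLT3 probe set that was itself lower in severe cows, the difference was -0.28 ± 0.23 (SE), against the third it was -0.79 ± 0.24 (SE), and against the mean of all 3 it was -0.59, so its size depends on the probe set. TUBA1A minus DYNLT1 differed by -0.05 ± 0.11 (SE).

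Deviations of each cow from the mean of its own group do not hold the difference between the groups, although the p by which TUBA1A and DYNLT1 were chosen depended on the size of their deviations as well. With them 11 pairs were tested over 11 cows. TUBA1A went with TUBB (r = 0.84, exact permutation p = 0.00503, adjusted p = 0.0256; rho = 0.65, exact p = 0.0501) and with DYNLL1 (r = 0.76, exact p = 0.00699, adjusted p = 0.0256; rho = 0.65, exact p = 0.0343). DYNLT1 went with TUBB (r = 0.78, exact p = 0.00395, adjusted p = 0.0256; rho = 0.83, exact p = 0.00508). The tests permuted cows within groups, two-sided, over all 86400 pairings, with Benjamini-Hochberg adjustment over the 11 pairs. By Spearman's rho 0 of the 11 pairs passed the adjustment, the smallest adjusted p being 0.0559. Without the 2 cows farthest from the median of the first gene, r was 0.90 for TUBA1A with TUBB, 0.78 for TUBA1A with DYNLL1 and 0.89 for DYNLT1 with TUBB.

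TUBA1A and DYNLT1 had an r of 0.65 with each other (exact p = 0.0519, adjusted p = 0.0842; rho = 0.67, exact p = 0.0441), or 0.81 without mild 1 and severe 2. The r of TUBA1A was 0.65 with TUBA4A and 0.52 with TUBG1, and that of DYNLT1 was 0.60 with TUBA4A, 0.59 with TUBG1 and 0.50 with DYNLL1, with adjusted exact permutation p between 0.0842 and 0.156. DYNLT3 had an r of -0.19 with TUBA1A and -0.07 with DYNLT1 (adjusted exact permutation p = 0.665 and 0.870). Severe 2, severe 4 and mild 5 lay below their group means in TUBA1A, TUBB and DYNLL1 alike. Leaving out any 1 of severe 1, severe 2 or mild 5 took the adjusted p of all 3 pairs above 0.05, and leaving out severe 4 did so for the pairs of TUBA1A with TUBB and with DYNLL1. Under these omissions r stayed between 0.67 and 0.82 and the adjusted exact permutation p ran from 0.0584 to 0.202, the highest being that without mild 5. The pair of DYNLT1 with TUBB was also lost without mild 2 and severe 5 together (r = 0.76, adjusted exact permutation p = 0.0764), and that of TUBA1A with DYNLL1 with the mean over both DYNLL1 probe sets (r = 0.70, adjusted exact permutation p = 0.0711).

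**Figure D3:**
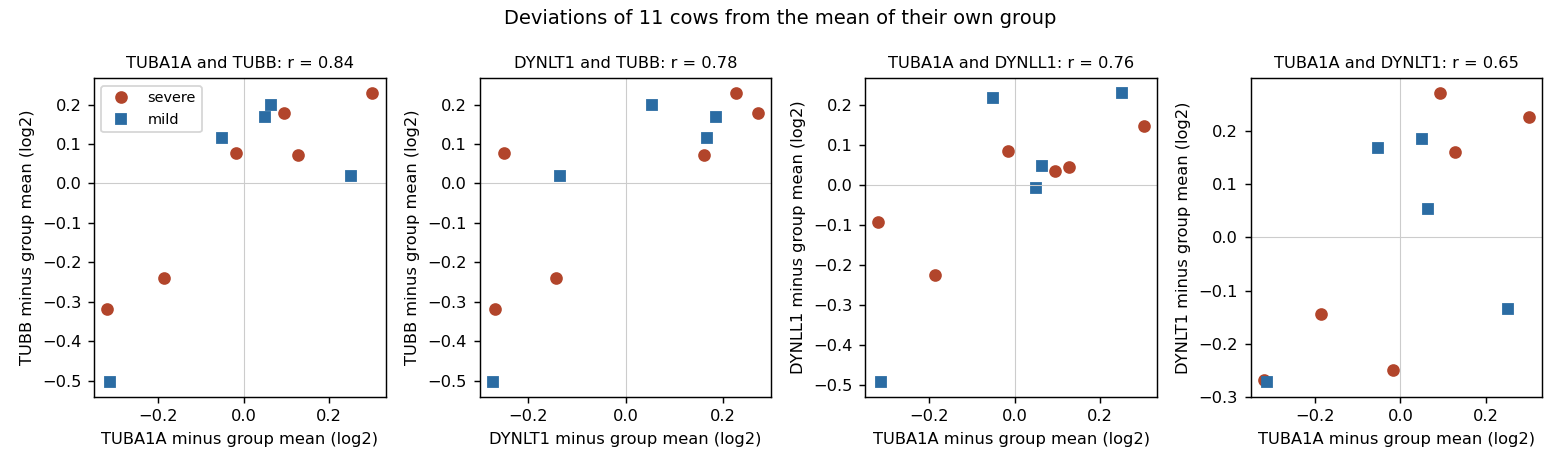
Deviations of 11 cows from their group mean (log2 units), severe cows as circles and mild cows as squares, for 4 pairs of genes. Cows low in TUBA1A were also low in TUBB (r = 0.84) and DYNLL1 (r = 0.76), and mild 5 is the lowest square in each panel.

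By the same measure, 7127 other genes above the dim limit were set against TUBA1A and DYNLT1, as a description. The 6 genes closest to TUBA1A were NCAPH2, a condensin subunit (r = 0.93), PRMT1, an arginine methyltransferase (r = 0.93), CCT6A, a subunit of the chaperonin that folds tubulin (r = 0.92), OLFML3, a secreted matrix protein (r = 0.91), SRSF1, a splicing factor (r = 0.91), and RPSA, a protein of the small ribosomal subunit (r = 0.91). CCT6A averaged 10.56 in severe cows and 11.05 in mild cows, while RPSA was nearly level at 13.39 in severe and 13.46 in mild cows. The lowest r with TUBA1A had STARD3NL, KIT and PARP16, at -0.95, -0.95 and -0.93. Closest to DYNLT1 were RPA3, a subunit of the single-strand DNA binding complex of replication (r = 0.95), NDUFB5, a subunit of respiratory complex I (r = 0.92), RAP1GDS1 (r = 0.92), the mitochondrial ribosomal proteins MRPL18 and MRPL24 (r = 0.91 and 0.90) and FGF13 (r = 0.89). RPA3 averaged 8.61 in severe cows and 9.13 in mild cows. The lowest r with DYNLT1 had PITHD1, SLC15A4 and S100A13, at -0.97, -0.95 and -0.95. With 11 cows and so many genes some r of this size arise without any relation, and none is read as shared control.

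Other genes of the microtubule system, of cilia and of cell division were then taken from 7 lists, none of which holds a member in the counts that follow. The list of mitosis and cell division also holds genes of DNA synthesis, which are no part of microtubules. Over the 126 genes measured, limma called 0 at an adjusted p under 0.05 (lowest 0.284). By the unadjusted p under 0.05, 21 genes (16.7%) were lower and 1 (0.794%) was higher in severe cows, against 7.46% and 8.45% of all genes. Without the list of mitosis and cell division, 19 of 102 genes (18.6%) were lower. The median difference of the 126 genes was -0.13. All adjusted p below are limma's over all probe sets, and no gene named passed.

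The list nearest to the members, other tubulins and gamma tubulin ring proteins, had 11 of 21 genes measured and a median of -0.07. It held 2 genes at an unadjusted p under 0.05, both lower in severe cows, and 1 without any 1 of severe 3, severe 5, severe 6, mild 3 or mild 4. TUBGCP2, a ring protein that binds gamma tubulin, averaged 7.44 in severe cows (SD 0.18, n = 6) and 7.75 in mild cows (SD 0.09, n = 5), with an adjusted limma p of 0.306. TUBB2B, a beta tubulin of neurons, averaged 10.18 in severe cows (SD 0.15) against 10.45 in mild cows (SD 0.21), a difference of -0.27 ± 0.11 (SE, adjusted p = 0.349). The remaining 9 genes, among them TUBB4A at -0.32 ± 0.23 (SE) and TUBB1 at 0.08 ± 0.09 (SE), lay on both sides of 0.

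Among other cytoplasmic dynein subunits, dynactin and adaptors 25 of 34 genes were measured, 3 of them at an unadjusted p under 0.05, all lower, and the median was -0.07. DYNLT2B, a light chain of the same family as DYNLT1, averaged 7.07 in severe cows (SD 0.23, n = 6) and 7.56 in mild cows (SD 0.22, n = 5), a difference of -0.49 ± 0.13 (SE, adjusted p = 0.285). DCTN3, a dynactin subunit, differed by -0.23 ± 0.09 (SE, adjusted p = 0.334). The heavy chain DYNC1H1, which is the motor itself, was at 0.02 ± 0.10 (SE), with the opposite sign in its 2 other probe sets, and the third light chain class had DYNLRB1 at -0.0037 ± 0.07 (SE). Other measured subunits of the motor were the intermediate chains DYNC1I1 at -0.46 ± 0.33 (SE) and DYNC1I2 at -0.03 ± 0.06 (SE), and the light intermediate chains DYNC1LI1 at 0.03 ± 0.08 (SE) and DYNC1LI2 at -0.51 ± 0.35 (SE). DYNLRB2, the paralogue of DYNLRB1, was at -0.32 ± 0.38 (SE), with the opposite sign in its second probe set. These subunits, from DYNC1H1 on, were added to the account after their values were seen, and none was at an unadjusted p under 0.05. The count of 3 was 1 without mild 4 and 5 with array weights.

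Tubulin folding and modification had 28 of 35 genes measured, of which 11 (39.3%) were at an unadjusted p under 0.05, all lower in severe cows. Over all genes 7.46% were lower at that p, and the median of the list was -0.15. PFDN1, a subunit of prefoldin, which hands new tubulin to the chaperonin, averaged 8.42 in severe cows (SD 0.08, n = 6) and 8.73 in mild cows (SD 0.14, n = 5), with an adjusted limma p of 0.284. TBCB, a cofactor of alpha tubulin folding, averaged 9.68 in severe cows (SD 0.11) against 9.95 in mild cows (SD 0.13), a difference of -0.27 ± 0.08 (SE, adjusted p = 0.304). The list was divided by role after its values were seen. Its chaperones, TRiC and prefoldin, also handle proteins other than tubulin, so their counts are not particular to tubulin. Of 6 subunits of the TRiC chaperonin all had a difference below 0, between -0.48 and -0.12, and 5 were at an unadjusted p under 0.05 (CCT2, CCT3, CCT5, CCT6A and CCT8). Of 6 prefoldin subunits 2 were, of 6 tubulin cofactors with ARL2 again 2, and of 10 modifying enzymes and others 2. The count of 11 was 5 without mild 2, 6 without mild 4, 7 without severe 4, 7 without mild 3 and 6 with mild 2 and severe 5 both left out.

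Microtubule-associated and plus-end proteins had 21 of 35 genes measured, 3 of them at an unadjusted p under 0.05, all lower, and a median of -0.06. STMN2, a tubulin-binding protein of neurons, was dim, at 3.75 in severe cows (SD 0.22, n = 6) and 4.95 in mild cows (SD 1.14, n = 5), and its highest value was 6.89 in 1 mild cow, so its difference of -1.19 is not exact (adjusted p = 0.317). KATNA1, a microtubule-severing enzyme, differed by -0.19 ± 0.07 (SE, adjusted p = 0.319). The list of transport kinesins, which also holds KIF2A, not a transport motor, had 12 genes measured, of which 1 was counted, KIF3B. It was at 8.06 in severe cows (SD 0.10, n = 6) and 7.91 in mild cows (SD 0.07, n = 5), with an adjusted limma p of 0.385. Its second probe set had the opposite sign. The count of genes of this list higher in severe cows was 2 without severe 1. It was 0 without any 1 of severe 2, severe 4, severe 6, mild 1, mild 3 or mild 4. Without severe 6 the list held 1 gene lower in severe cows at that p. The median of the list was -0.04.

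Markers of motile cilia had 5 of 34 genes measured, 3 of them dim, and all 5 had a difference below 0 with none at an unadjusted p under 0.05, but 3 without mild 5 and 2 without severe 3. RSPH9, a radial spoke protein, differed by -0.68 ± 0.35 (SE, adjusted p = 0.447). Of 24 genes of mitosis and cell division measured, 22 had a difference below 0, with a median of -0.42. CCNB1, the cyclin of entry into mitosis, averaged 6.83 in severe cows (SD 1.35, n = 6) and 8.71 in mild cows (SD 0.91, n = 5), with an adjusted limma p of 0.308, and TYMS, which makes thymidylate for DNA synthesis, differed by -0.46 ± 0.15 (SE, adjusted p = 0.308). These 2 (8.33% of the 24 genes) were the ones at an unadjusted p under 0.05, against 7.46% of all genes lower in severe cows. Without mild 5 there were 8, while over all probe sets the number lower at that p rose from 1412 to 2010.

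**Figure D4:**
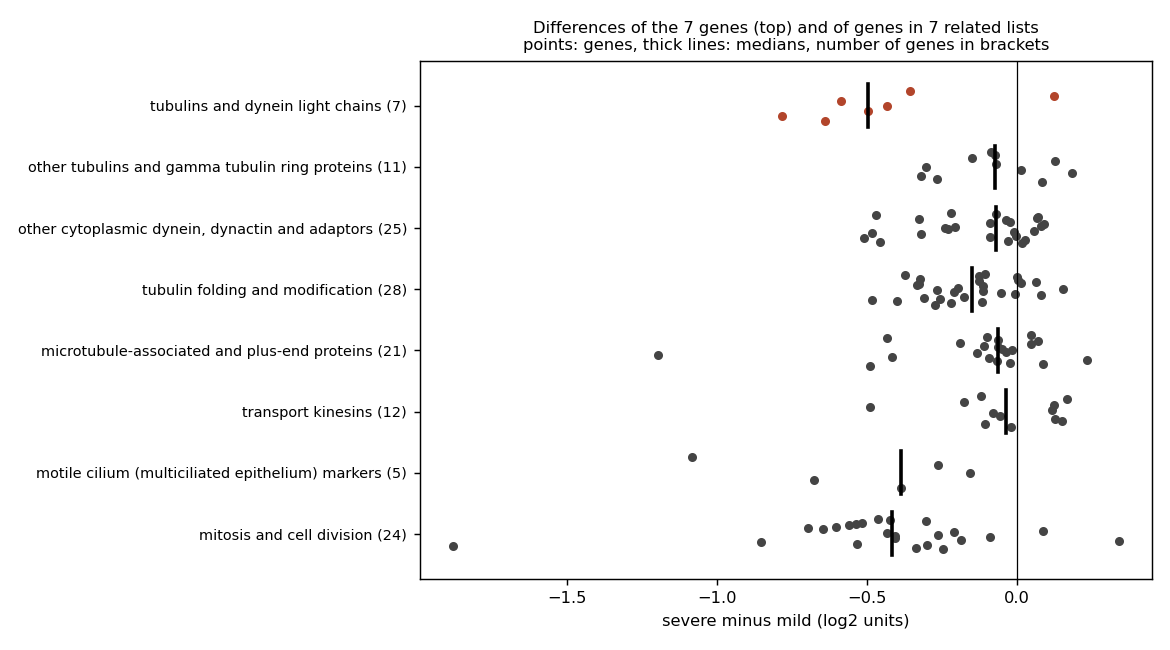
Severe minus mild differences (log2 units) of the 7 genes (top row) and of 7 lists of related genes, with 1 point per gene and a thick line at the median. The median of the 7 genes is -0.50, and -0.43 without TUBA1A and DYNLT1, which were chosen by this contrast. The medians are -0.42 for mitosis and -0.39 for cilia (5 genes, 3 of them dim), and lie between -0.15 and -0.04 for the other lists.

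Since the endometrium was measured as bulk tissue, lists of cell type markers were read beside the members. The mean signal of the mitosis list was 6.67 in severe cows (SD 0.57, n = 6), from 5.85 to 7.22, and 7.10 in mild cows (SD 0.61, n = 5), from 6.26 to 7.86. Its lowest cow in the mild group was mild 5, and its 2 lowest cows in the severe group were severe 4 and severe 2, cows that were also low in TUBA1A and TUBB. Not all cows followed this order. Mild 1 was the next lowest mild cow of the list at 6.79 but the highest of all 11 cows in TUBA1A at 12.81. Mild 2 was the highest of the list at 7.86 but had 12.51 in TUBA1A, below the mild mean of 12.56. Smooth muscle and pericyte markers had 13 of 15 genes measured, 9 with a difference below 0. They averaged 11.02 (10.41 to 11.39) in severe cows and 11.18 (10.64 to 11.46) in mild cows, with mild 5 the lowest mild cow. That difference of -0.16 lay near the -0.11 of the epithelial markers, described below as nearly level. The part of the mitosis and smooth muscle genes in the differences of the members was not tested.

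The mean of the stromal fibroblast markers was nearly level, at 11.03 in severe cows (SD 0.18, n = 6) and 11.01 in mild cows (SD 0.27, n = 5), and so were the means of epithelial markers, at 7.93 in severe and 8.04 in mild cows (SD 0.50 and 0.30), and endothelial markers, at 7.66 in severe and 7.61 in mild cows (SD 0.14 and 0.18). Single genes of the level lists went both ways. Of 11 stromal genes 5 were higher and 6 lower, with PDGFRA at 0.97 ± 0.27 (SE) and HOXA10 at -0.71 ± 0.20 (SE). Of 13 epithelial genes 5 were higher and 8 lower, with CLDN10 at -0.997 ± 0.42 (SE) and CLDN4 at 0.64 ± 0.35 (SE). These 4 genes were chosen after their values were seen; PDGFRA, HOXA10 and CLDN10 were at an unadjusted p under 0.05. None of them passed the adjustment, with adjusted limma p from 0.289 to 0.465. The means of these lists lay above the dim limit, and the labelled tissue holds these cells. Of 10 neuronal and glial markers measured 5 were dim, and the list averaged 5.20 in severe cows and 5.44 in mild cows. Neutrophil markers did not overlap between the groups, at 7.65 to 10.18 in severe cows and 5.86 to 7.31 in mild cows, with 8 of 8 measured genes higher. Macrophage markers (9.03 in severe cows and 8.23 in mild cows), T and NK cell markers and B and plasma cell markers averaged higher in severe cows too, by 0.81, 0.61 and 1.78. Of 13 T and NK cell genes measured 12 were higher, but among these CD8A and GZMB were nearly level at 0.01 each. The 1 lower was CD8B at -0.19. Of 6 B and plasma cell genes measured 3 were dim. The part of these cells in the lower tubulin signals was not tested.

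Within groups, the deviations of TUBA1A and DYNLT1 were set against those of 11 lists, 22 relations over 11 cows. The r of DYNLT1 was 0.80 with the mitosis list (exact permutation p = 0.00637; rho = 0.79, exact p = 0.00822) and 0.77 with the smooth muscle list (exact p = 0.0105; rho = 0.74, exact p = 0.0237), each with an adjusted p of 0.115. The r of TUBA1A was 0.64 with both lists (exact permutation p = 0.0489 and 0.0482, adjusted p = 0.215). DYNLT1 had an r of 0.63 with the neuronal and glial list (exact permutation p = 0.0363, adjusted p = 0.215; rho = 0.70, exact p = 0.0223). These 5 were the relations at an unadjusted p under 0.05. With the macrophage list r was -0.55 for TUBA1A and -0.52 for DYNLT1 (adjusted exact permutation p = 0.381 and 0.422), and without 2 cows -0.67 and -0.55. With T and NK cells r was -0.41 for TUBA1A and -0.37 for DYNLT1 (adjusted exact permutation p = 0.489 and 0.549). Endothelial markers had an r of -0.06 with TUBA1A and -0.49 with DYNLT1 (adjusted exact permutation p = 0.858 and 0.419). For stromal markers r was 0.09 and -0.39 (adjusted exact permutation p = 0.858 and 0.489). With neutrophils it was -0.12 and -0.08, and with B and plasma cells -0.22 and -0.16 (adjusted exact permutation p from 0.802 to 0.858). No relation passed the adjustment. Without the 2 cows farthest from the median of the gene, r of DYNLT1 was 0.94 with mitosis and 0.70 with smooth muscle, and r of TUBA1A was 0.80 and 0.74.

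**Figure D5:**
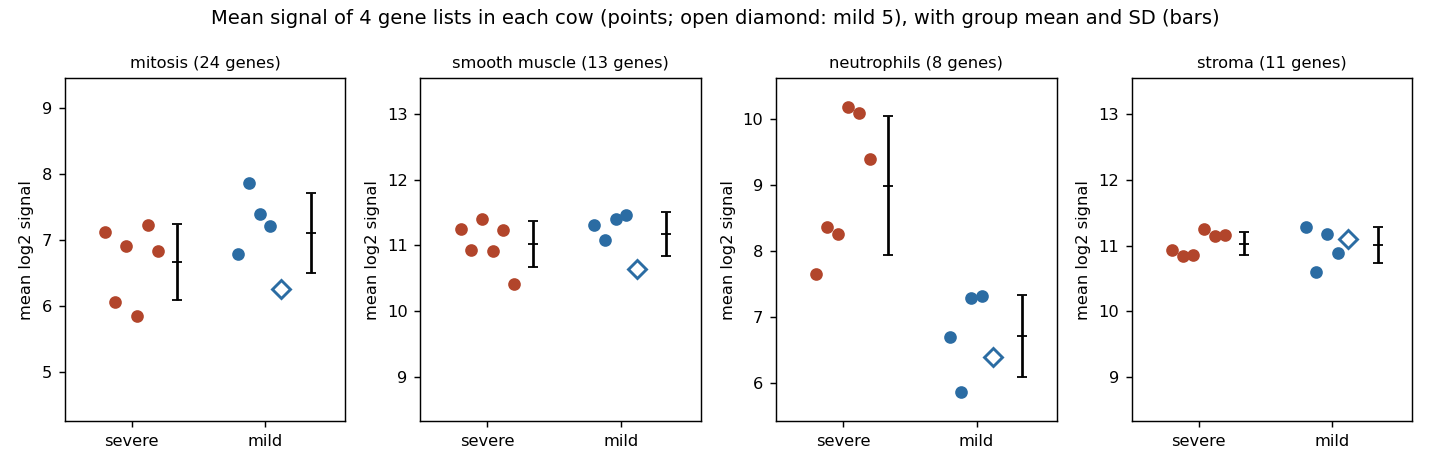
Mean log2 signal of 4 gene lists in each cow, severe on the left and mild on the right, with bars for the mean and SD and an open diamond for mild 5. The neutrophil list is apart between the groups, at 7.65 to 10.18 in severe cows and 5.86 to 7.31 in mild cows, while the mitosis, smooth muscle and stromal lists overlap.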

How the data were processed

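The authors deposited RMA values of 24128 probe sets on 11 bovine Affymetrix arrays, per the submitters' processing notes, which give neither version nor filters. That these deposited values are log2 follows from their range of 2.65 to 14.6. After quantile normalization a change shared by all transcripts cannot be seen, and the number of arrays limits the precision. The 112 control probe sets were left out. Of the other 24016, 13292 had 1 symbol in the annotation of 2016, 86 several and 10638 were not listed. Entrez numbers matched 13263 of them to RefSeq names of ARS-UCD2.0, with 0 names changed.

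With limma 3.58.1 under R 4.3.3, lmFit and eBayes compared 6 severe with 5 mild cows over all probe sets. The tests were two-sided, with Benjamini-Hochberg adjustment, and the fit gave the SE of each probe set. The limma procedure was tested on simulated data. For differences within cows between 2 genes, the SE was pooled from the variances of both groups, without eBayes. Exact permutations within groups and the figures used Python 3.11.15 and matplotlib 3.10.9. Members, lists and alternatives were chosen with earlier results of these data known. Named from each list were the 2 genes with the smallest p per direction at an unadjusted p under 0.05, or otherwise the 1 with the smallest p, and for likeness the 6 highest and 3 lowest r. The alternatives were a second quantile normalization, a common median, array weights, other eBayes settings, a filter on dim probe sets, means over probe sets and the omission of cows. Replicate numbers only name the cows, which the labels describe as separate animals.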

Additional observations from a re-analysis of the deposited data

Results flagged for a closer look

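In 2 of 22 groups of values, 1 cow lay farther from its group than Dixon's critical value for 5 samples allows, where chance flags about 1 in 20. For TUBB, mild 5 had a log2 signal of 11.68 and the nearest mild cow 12.20. For TUBG1, mild 5 had 8.33 and the nearest mild cow 8.90.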

How the results depend on the processing

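No paired analysis was possible because the labels give the cows no shared numbers. For each of the 11 probe sets the sign of the severe minus mild difference held in all alternatives run for it. For DYNLT3, however, the mean over all its probe sets differed by only 0.00726. With 1 cow left out the difference ran from -0.72 to -0.58 for TUBA1A and from -0.65 to -0.53 for DYNLT1. The 2 genes without overlap between the groups became 6 without mild 5 and stayed 2 otherwise. TUBA1A minus TUBA4A turned to -0.06 without mild 2 (-0.10 when severe 5 was dropped as well), and TUBA1A minus DYNLT1 to 0.04 without mild 1, both within the spread between cows. DYNLT1 minus DYNLT3 was -0.28 with another DYNLT3 probe set, an alternative chosen after seeing the data. TUBA1A with DYNLT1 had an r of 0.81 after a second quantile normalization (exact permutation adjusted p = 0.0142) and between 0.54 and 0.84 with 1 cow left out. The number of all probe sets at a limma adjusted p under 0.05 was 0 to 16 with 1 cow left out (16 without severe 1, 2 without severe 3). Of the 126 related genes, 13 to 33 were lower at an unadjusted p under 0.05 with 1 cow left out (13 without mild 4, 33 without mild 5), and 0 to 3 were higher. That last count was 0 after a second quantile normalization, with trend and robust settings and with the filter on dim probe sets. Over all probe sets, 1412 were lower at an unadjusted p under 0.05 with all cows, 1023 without mild 4 and 2010 without mild 5. The cause of these shifts was not tested.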
